A study of Homo sapiens with 2 samples.

Results

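Histone genes were followed in 3' end counts from A549 cells, a lung carcinoma line, after transfection with siRNAs against ADGRF4, an adhesion G protein-coupled receptor, or with control siRNAs. The genes were all symbols that begin with HIST and a digit, or with H1F, H2AF or H3F, and hold no hyphen. This gave 90 of the 24462 symbols in the counts: 73 HIST-named genes and 17 H1F, H2AF or H3F genes. By GENCODE 29, 4 of the 90 are pseudogenes. Each group is 1 library, from A549 cells given control siRNAs or from A549 cells given ADGRF4 siRNAs. The sources used here give neither the time after transfection nor the siRNA sequences. With 1 library a group there is no replicate check, so no p-value is given and every difference is between 2 libraries. Intervals in parentheses are exact 95% intervals of counting error only.

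The nucleosome is built from the core histones H2A, H2B, H3 and H4, and H1 histones bind the linker DNA between nucleosomes. Most core histone protein is made in S phase from replication-dependent genes, which lie in clusters and carry the HIST names. Their mRNA is the known exception to polyadenylation: it ends in a short stem-loop bound by SLBP, the stem-loop binding protein, and is cut just after it with the help of the U7 small nuclear RNA. Variant histones such as H3.3, H2A.Z, macroH2A and H1x are made outside S phase too, from genes with ordinary poly(A) tails. Some HIST genes also give polyadenylated mRNA. The libraries were primed on poly(A), so a count reports the tailed or A-rich part of a histone gene's RNA and not its total.

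The stem-loop is printed here because it sets apart the transcripts that normally lack a tail. The pattern searched was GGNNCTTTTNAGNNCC, where N is any base, on the transcript strand of all GENCODE 29 transcripts. It was found in 33 of the 90 histone genes and in 80 of 58721 genes overall (0.136%). Among the 33 were 32 HIST-named genes and H2AFX, which encodes the H2A variant that is phosphorylated at DNA breaks. The sequences took 6 forms, each of 16 bases, with the 6 bases of each stem arm in capitals and the 4 loop bases in lower case:
HIST2H2AA4, HIST2H2AA3, HIST1H2AI, HIST2H2BE and 13 others: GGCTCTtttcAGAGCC
HIST1H2BD and 4 others: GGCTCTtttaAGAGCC
HIST1H4J and 4 others: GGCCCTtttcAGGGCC
HIST1H4I, HIST2H4A and HIST2H4B: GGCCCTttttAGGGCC
HIST1H2AG and HIST2H2BC: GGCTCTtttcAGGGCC
H2AFX: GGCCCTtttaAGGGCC
The GGCCCT arm was found in H4 genes and H2AFX, and the GGCTCT arm in H2A, H2B and H3 genes.

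A different set of sequences shows where poly(A) priming could begin. The annotated transcript of HIST1H4C, the HIST gene with the most counts, holds no stem-loop match and ends 51 bases past the stop codon in a stretch rich in A. A stem-loop past that end could not be searched, so the gene may still have one. Windows of 30 bases follow, with runs of 3 or more A in capitals; 3 linker histone genes, whose lysine codons are rich in A, are shown beside it, with HIST1H2BG, whose annotated transcript ends in a run of A:
HIST1H4C, last 30 bases: tgagaacttcAAAAAAcAAAAAcAAAAAAA
HIST1H1C, coding: gagcgctaagAAAAcaccgaagAAAgcgaa
HIST1H1D, coding: accccgaagAAAAgcatcAAAAAgactcct
HIST1H1E, coding: gagccAAAAAAgcgAAAAgcccgAAAAAgg
HIST1H2BG, near the end: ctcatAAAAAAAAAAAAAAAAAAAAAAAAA
HIST1H4C holds 18 A in its richest 20 bases, and of the 73 HIST genes HIST1H2BG alone holds more, 20. HIST1H4C had 3359 control counts and 3755 knockdown counts, but HIST1H2BG had 1 and 7. A stretch of A in the annotated transcript therefore did not go with a high count in both genes. Of the 73 HIST genes, 30 hold at least 12 A in their richest 20 bases. Their median was 3.0 counts (mean of the libraries), and 9 of them had 0 in both. The linker genes shown had counts, whereas HIST1H1A, with 13 A, and HIST1H1B and HIST1H1T, with 12 A each, were among those 9. A count also depends on how much RNA a gene makes, which was not measured apart from the counts. Priming at these stretches was therefore not tested.

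Ordinary poly(A) signals are printed for 3 genes of the results, with AATAAA in capitals. HIST1H2BD has a signal in each of its 2 annotated transcripts, of which the longer, of 789 bases, holds no stem-loop match.
HIST1H2BD, longer transcript: aaagttataattAATAAAatctgcggagaa
H1FX: ttttttgggcacAATAAAgcgtttaaacct
H2AFZ: gtggataagttcAATAAAggtcatatccca

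In total, 10396047 counts were held by the control library and 9825320 by the knockdown library. ADGRF4 had 3 and 1 counts, so the silenced gene does not check the labels. All 6 epithelial markers were counted (81630 and 104231 counts in sum, control first, although CDH1 went from 1218 to 239, KRT8 from 13756 to 7529 and EPCAM from 75 to 38), against 52 and 32 counts for 4 leukocyte markers, among them CD3E at 0 in both, 0 and 3 for 3 endothelial markers, and 50 and 51 for 3 fibroblast markers. Levels are given as CPM, counts per 1000000 of a library size adjusted with TMM (trimmed mean of M values). Counts of 3' ends are not divided by transcript length, because a molecule gives about 1 site to read whatever its length, but how well that site is captured differs from gene to gene. In bulk RNA, fewer cells with a transcript and less of it per cell cannot be told apart.

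Histone genes took 0.382% of the control counts (0.378 to 0.385) and 0.397% of the knockdown counts (0.393 to 0.401). The 17 variant genes held most of this, with 33981 and 33230 counts, and the 73 HIST genes held 5689 and 5791. HIST genes made up 14.3% of control histone counts (14 to 14.7) and 14.8% of knockdown histone counts (14.5 to 15.2), with overlapping intervals. The scaled HIST sum was 1.19-fold higher after ADGRF4 siRNA (1.15 to 1.24), but without HIST1H4C the ratio was 1.02 (0.965 to 1.09). The scaled variant sum was 1.15-fold higher (1.13 to 1.16), and without H1FX, left out because its ratio was seen to be the highest of the variants, it was 1.04-fold lower (1.02 to 1.06). The variant sum also held genes that went in opposite directions, and without H3F3B, the variant with the most counts, its log2 ratio was 0.21, against 0.20 with it.

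Few HIST genes had many counts. Of the 73, 12 averaged 30 counts or more, 24 had 0 counts in both libraries, and 35, with those 24 among them, had at most 3 in each. A count of 0 still allows 3 counts, equal to 0.274 control CPM and 0.321 knockdown CPM. HIST1H4C, an H4 gene on chromosome 6, held 59.0% of HIST counts in the control (57.8 to 60.3) and 64.8% in the knockdown library (63.6 to 66.1). It also held 97.2% and 97.4% of the counts of all 15 H4 genes. By contrast, the 14 HIST genes for H3 together had 14 and 28 counts, with 10 of them at no more than 3 in either library. HIST1H3A and HIST1H3B had 0 control counts and 8 and 9 knockdown counts. HIST2H3A and HIST2H3C, which share their last 300 bases, had 3 and 5 control counts and 0 knockdown counts. These genes averaged under 30 counts and were named after their values were seen. Poisson intervals of the 2 libraries overlapped for HIST1H3A (0 to 3.69 and 3.45 to 15.8), HIST2H3A and HIST2H3C. They did not for HIST1H3B (0 to 3.69 and 4.12 to 17.1). H3 message in these libraries therefore came almost wholly from the variant genes, at 12720 and 12548 counts.

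The annotated 3' end sorted the HIST genes in a way the symbols do not show. In 23 genes the annotation reaches over 100 bases past the stem-loop, as a tailed transcript would. These had 119 and 144 counts in sum, with a median over genes of 3.0 counts (mean of the libraries), and 5 had 0 in both. The 9 genes with a stem-loop transcript that stops within 100 bases of the stem-loop had 552 and 571 counts and a median of 40.5. Of them, 5 reached a mean of 30. Most of these counts came from HIST2H2AA4, HIST2H2AA3, HIST1H2BD and HIST1H4J, which all have an AATAAA near an annotated end. The group thus holds genes with an AATAAA, but whether it is used was not tested. In HIST1H4J the AATAAA lies before the stem-loop, in a transcript that ends 6 bases past it. HIST1H2AE, HIST1H2AI, HIST1H2BL, HIST1H4B and HIST3H3 have no AATAAA near an annotated end. HIST1H2BD is among these 9 by its transcript with the stem-loop, although its longer transcript, without a match, has a 3' UTR of 384 bases. A further 34 genes are annotated only to the stop codon, so the stem-loop could not be searched there. They had 1642 and 1282 counts with a median of 1.0, and 14 had 0 in both. The last 7, longer but without a match, had 3376 and 3794 counts, nearly all from HIST1H4C. Some of these also end soon after the stop codon, at 51 bases in HIST1H4C and HIST1H1T and 57 in HIST1H1E. A stem-loop past those ends could not be searched either. HIST2H2BE, with 1729 annotated bases past its stem-loop and an AATAAA near the end, had 32 and 18 counts. HIST1H2AC, with 1128 such bases, had 2 and 4. A long annotated end did not go with a high count among these genes.

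**Figure D1:**
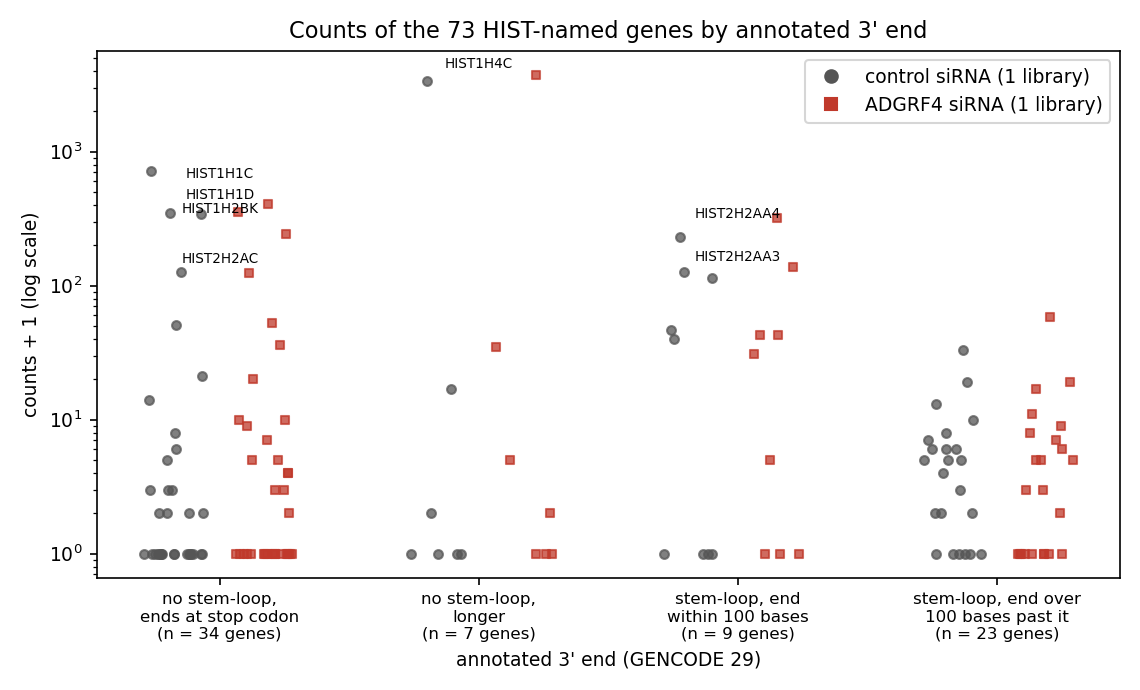
Counts plus 1 (log scale) of the 73 HIST-named genes in the control library (grey circles) and the knockdown library (red squares), by how their transcripts end in GENCODE 29. HIST1H4C stands alone at 3359 and 3755 counts, and the 23 genes annotated over 100 bases past the stem-loop all lie low. The annotation used in counting is not known and may end elsewhere.

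A ratio was formed where the 2 libraries averaged 30 counts or more, as 23 of the 90 histone genes did: 12 HIST genes and 11 variants. The 67 below the limit had 194 and 245 counts in sum, the highest being HIST2H2BE with 32 in the control and HIST1H4K with 35 in the knockdown library. The log2 ratio was that of (CPM + 1), knockdown over control, and a gene was called from 1.5-fold. After ADGRF4 siRNA, 4 of the 23 were called higher, beside 21.1% of the 11771 symbols compared, and 5 lower, beside 22.3%. The other 14 lay between. The median log2 ratio of the 23 was 0.20, against -0.02 over all compared symbols, and their SD was 0.74 against 0.77. In share of calls and in spread the histone genes lay near the background.

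**Figure D2:**
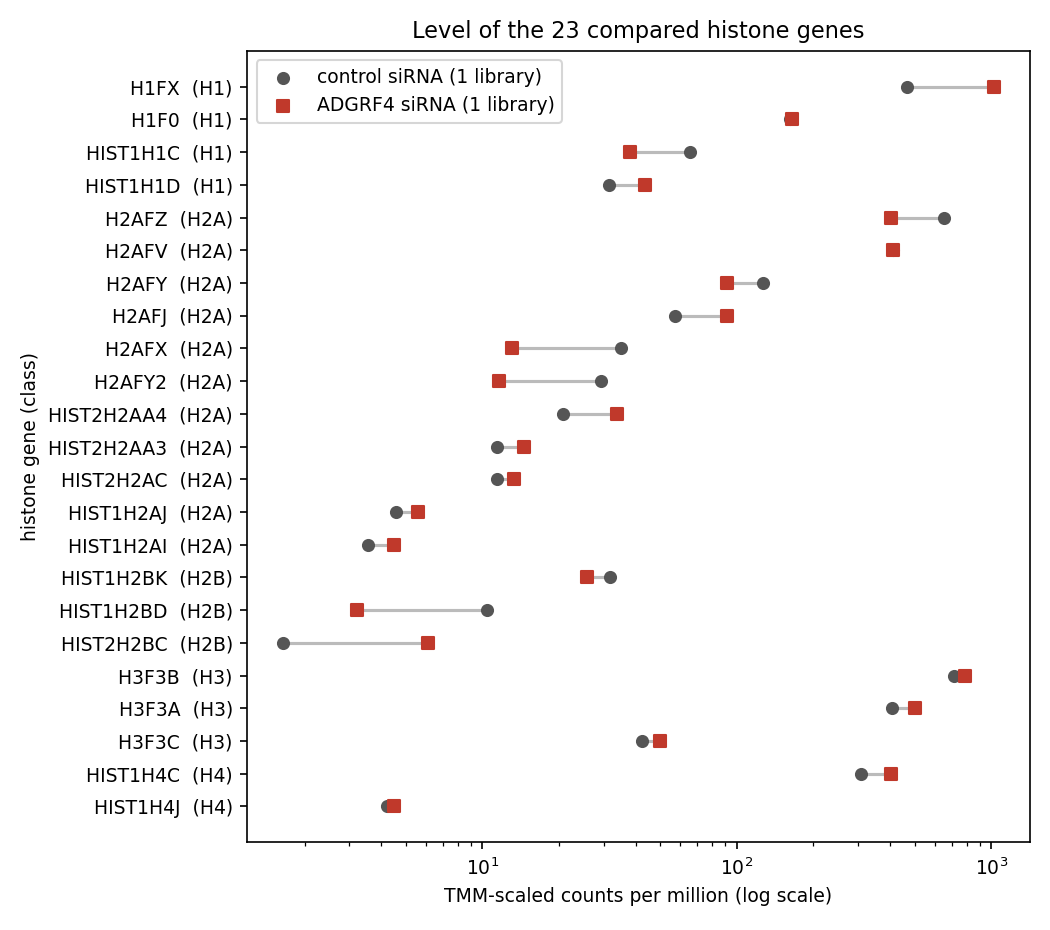
Scaled CPM (log scale) of the 23 compared histone genes in the control library (grey circles) and the knockdown library (red squares), grouped by histone class. H1FX moved from 466 to 1027 CPM and H2AFZ from 653 to 404 CPM, while H1F0 lay at 162 and 165 CPM and H2AFV at 411 and 412 CPM.

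The order of levels changed at the top. In the control library the highest were H3F3B (712 CPM), H2AFZ (653), H1FX (466), H2AFV (411), H3F3A (408) and HIST1H4C (307). In the knockdown library they were H1FX (1027 CPM), H3F3B (792), H3F3A (503), H2AFV (412), H2AFZ (404) and HIST1H4C (402). The counts of the last 3 there, 3844 for H2AFV (Poisson interval 3723 to 3967), 3768 for H2AFZ (3649 to 3890) and 3755 for HIST1H4C (3636 to 3877), did not differ beyond counting error.

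The linker histone genes changed in make-up between the libraries. H1FX, which encodes the linker histone H1x, had 5099 control counts and 9586 knockdown counts, a ratio of 2.21 (2.13 to 2.28). It passed 2-fold in these libraries, as did 7.84% of compared symbols, but its log2 ratio of 1.14 was 0.30, short of 1.5-fold, after centring on the median of genes with a like GC content at the 3' end. H1F0, which encodes a linker histone known from cells that have stopped dividing, had 1777 and 1537 counts, a ratio of 1.01 (0.947 to 1.09). HIST1H1C, a replication-dependent linker gene, had 717 and 356 counts, 1.72-fold lower after ADGRF4 siRNA (1.51 to 1.96). HIST1H1D, another linker gene, had 344 and 405 counts, a ratio of 1.38 (1.19 to 1.60) that stayed short of 1.5. Before centring, H1FX and HIST1H1C thus went in opposite directions. After centring, the log2 ratio was 0.20 for H1F0, -0.03 for HIST1H1D and -1.34 for HIST1H1C, and only HIST1H1C was still called. HIST1H1E, a further linker gene, had 16 and 34 counts and was not compared. H1FOO, known from oocytes, H1FNT and HIST1H1T, known from testis, and HIST1H1A and HIST1H1B were at 0 in both.

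Shares within the H1 genes do not depend on how libraries are scaled. H1FX went from 64.1% of H1 counts (63.0 to 65.2) to 80.4% (79.7 to 81.1). H1F0 went from 22.3% to 12.9% (12.3 to 13.5), and HIST1H1C from 9.02% to 2.99% (2.69 to 3.31). Of the counts of HIST1H1C and HIST1H1D, both on chromosome 6, HIST1H1C took 67.6% with control siRNA (64.7 to 70.4) and 46.8% with ADGRF4 siRNA (43.2 to 50.4). These genes differ in base composition, with which ratios moved in these libraries: the last 300 bases of H1FX hold 65.0% GC, those of HIST1H1C 56.0% and those of H1F0 38.3%, and its part in the shift was not tested. An annotated gene on the other strand, H1FX-AS1, overlaps H1FX and had 12 and 22 counts, far below those of H1FX.

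H2A.Z, an H2A variant found at promoters, comes from H2AFZ and H2AFV, and these parted between the libraries. H2AFZ, with 7147 and 3768 counts, was 1.62-fold lower (1.55 to 1.68). H2AFV had 4501 and 3844 counts, a ratio of 1.00 (0.959 to 1.05). H2AFZ therefore made up 61.4% of the counts of the pair in the control (60.5 to 62.2) and 49.5% in the knockdown library (48.4 to 50.6). The last 300 bases of H2AFZ and H2AFV are close in GC content, at 32.3% and 28.3%. After centring on GC content the log2 ratio was -0.40 for H2AFZ, no longer called, and 0.34 for H2AFV. The part of base composition in the shift was not tested. An annotated gene on the other strand overlaps H2AFZ, and its counts are not given here. H2AFZ has 6 named processed pseudogenes that could share reads, although no 50-base word of its last 300 bases occurs in another annotated gene.

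MacroH2A, an H2A variant with a large extra domain that is found on the inactive X chromosome and other silent chromatin, is encoded by H2AFY and H2AFY2. H2AFY had 1392 and 851 counts and a ratio 1.39-fold lower (1.28 to 1.52), short of the threshold. H2AFY2, with 320 and 108 counts, was 2.53-fold lower (2.02 to 3.17). The share of H2AFY2 in the pair was 18.7% (16.9 to 20.6) in the control and 11.3% (9.33 to 13.4) in the knockdown library. AIFM2, which overlaps H2AFY2 on the other strand, had 437 and 330 counts, and C5orf66, which overlaps H2AFY, had 116 and 62. Whether strand was used in counting is not known, and without it the reads of overlapping genes are mixed.

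H2AFX was lower by about as much as H2AFY2. Its 383 control counts and 122 knockdown counts made it 2.68-fold lower (2.18 to 3.31), where 10.4% of compared symbols were at least 2-fold lower. Its annotation runs 1044 bases past the stem-loop printed above, and it is known to give both a stem-loop and a polyadenylated mRNA, which the counts per symbol do not separate. H2AFJ, a gene for an H2A variant that lies outside the clusters on chromosome 12, went the other way, with 628 and 856 counts (1.60-fold higher, 1.44 to 1.78). The H2AFB1, H2AFB2 and H2AFB3 genes on the X chromosome, known from testis, had between 1 and 6 counts and share nearly all of their last 300 bases with each other.

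H3.3, the H3 variant put into chromatin outside replication, is encoded by H3F3A and H3F3B, whose proteins are identical. H3F3A had 4462 and 4696 counts, a ratio of 1.23 (1.18 to 1.29), and H3F3B had 7791 and 7387, a ratio of 1.11 (1.08 to 1.15). H3F3C, which encodes the related H3.5, had 464 and 465 counts, a ratio of 1.18 (1.03 to 1.34). None of the 3 reached 1.5-fold. H3F3A took 36.4% of the counts of H3F3A and H3F3B in the control (35.6 to 37.3) and 38.9% in the knockdown library (38.0 to 39.7), a smaller shift than that between the H2A.Z genes. UNK, on the other strand of H3F3B, had 185 and 34 counts. H3F3C shares 18.7% of its 50-base words with H3F3B, so its reads cannot all be assigned with certainty.

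**Figure D3:**
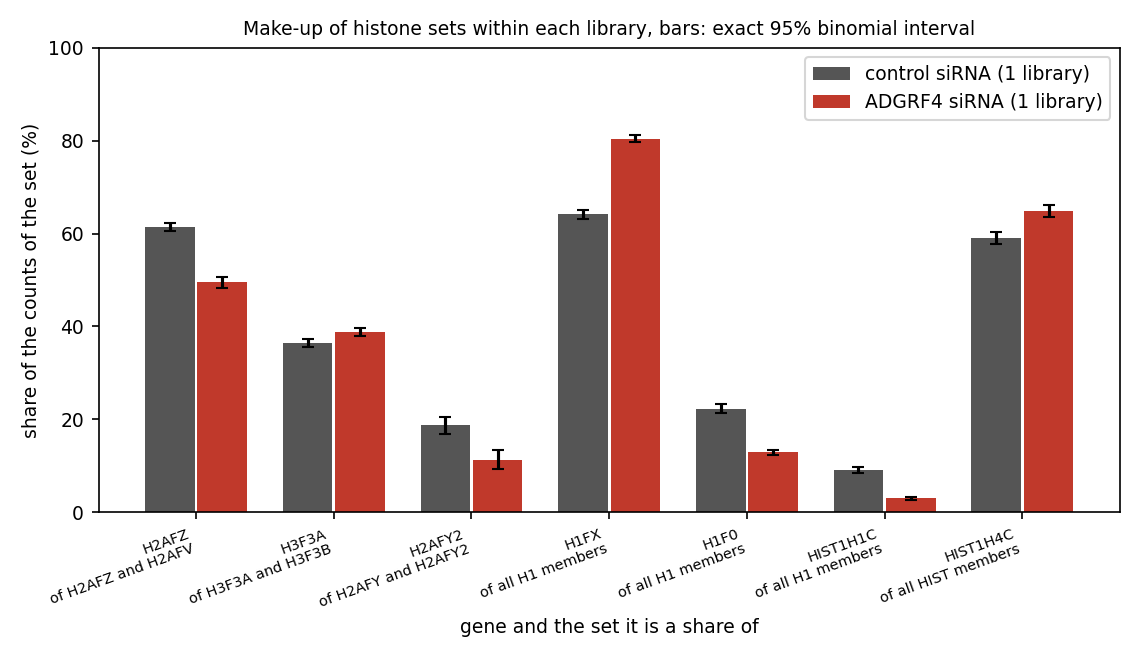
Share (%) of a gene in the counts of its set in the control library (grey) and the knockdown library (red), with exact 95% binomial intervals. H1FX went from 64.1% to 80.4% of H1 counts and H2AFZ from 61.4% to 49.5% of the H2A.Z pair, while H3F3A went from 36.4% to 38.9% of the H3.3 pair.

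Among the core histone genes of the clusters, HIST1H4C was 1.31-fold higher (1.25 to 1.37), with 307 and 402 CPM, and was not called. HIST1H4J, which shares 82.5% of its 50-base words with HIST1H4K, had 46 and 42 counts, a ratio of 1.07 (0.688 to 1.66). Neither of these, the only 2 of 15 H4 genes with enough counts, was past 1.5-fold, although HIST1H4J was called lower after centring on GC content (log2 ratio -0.76). HIST1H4K, under the limit, had 20 and 35 counts.

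The 5 compared H2A genes of the clusters all lay above a ratio of 1, but all 5 had log2 ratios below 0 after centring on GC content, from -0.64 for HIST2H2AC to -0.04 for HIST2H2AA4. HIST2H2AA4, with 228 and 317 counts, was called higher, at 1.63-fold (1.37 to 1.94). HIST2H2AA3 had 125 and 136 counts, a ratio of 1.28 (0.994 to 1.64). All 50-base words in the last 300 bases of these genes are shared, so their reads cannot be assigned with certainty. Their summed counts, 353 and 453, gave a ratio of 1.51 (1.31 to 1.73), and on the log2 (CPM + 1) scale this sum was no longer called. HIST2H2AC had 125 and 124 counts, a ratio of 1.16 (0.900 to 1.5). HIST1H2AI had 39 and 42 counts (1.26, 0.797 to 2.01) and HIST1H2AJ 50 and 52 (1.22, 0.811 to 1.84). HIST1H2AI and HIST1H2AJ share 84.1% of the words of the latter. For the last 4 of these 5 genes the interval held a ratio of 1.

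The H2B genes went in both directions. HIST1H2BD, with 114 control counts and 30 knockdown counts, was 3.24-fold lower (2.15 to 5.02), the lowest ratio of the 23 genes. HIST1H2BK had 347 and 240 counts, 1.23-fold lower (1.04 to 1.46), and held 64.3% and 60.3% of all H2B counts. The words of HIST1H2BK are shared at 80.1%, mainly with H2BFS. HIST2H2BC, an annotated pseudogene with a transcript of 6440 bases that overlaps HIST2H2BD on the other strand, had 18 and 57 counts, 3.71-fold higher (2.15 to 6.71), the highest ratio of the 23. It makes no known histone, and it rests on few counts.

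**Figure D4:**
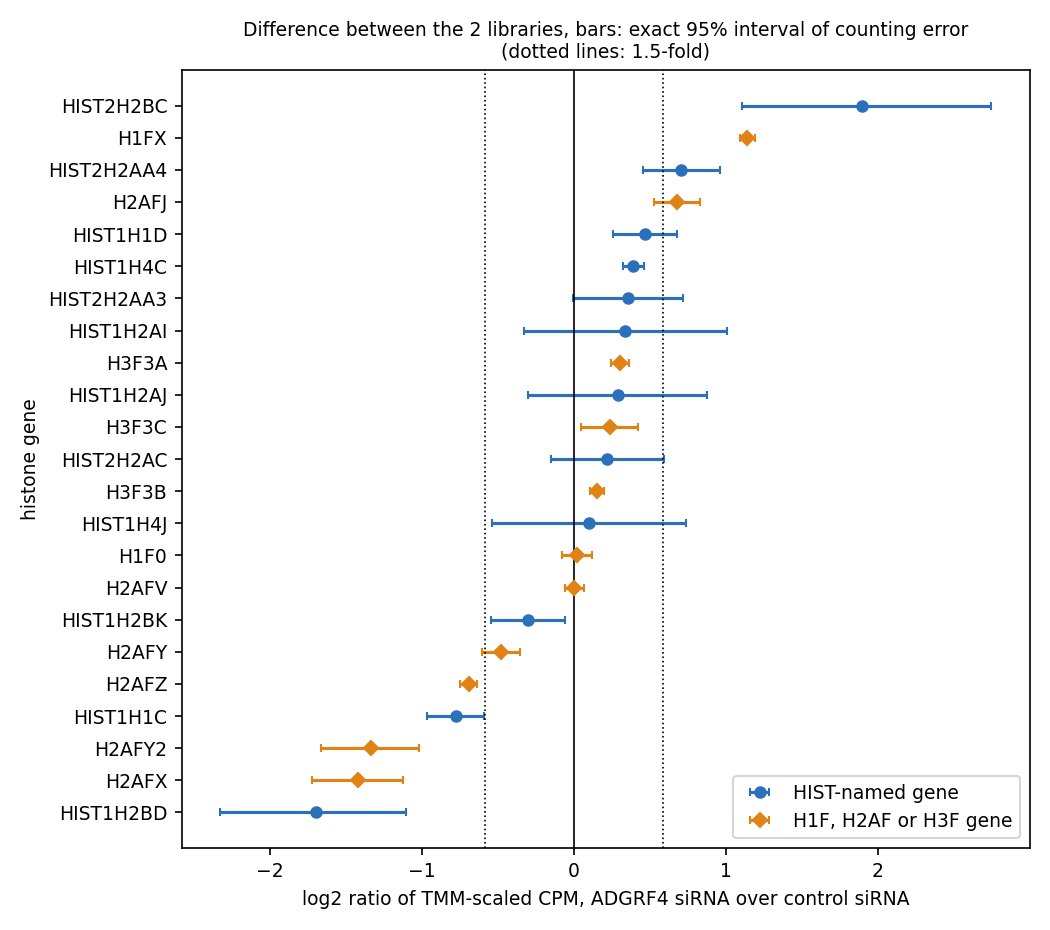
Log2 ratio of scaled CPM (ADGRF4 siRNA over control siRNA) of the 23 compared histone genes, with exact 95% intervals of counting error; dotted lines mark 1.5-fold. HIST1H2BD, H2AFX, H2AFY2, HIST1H1C and H2AFZ lie on the lower side and HIST2H2BC, H1FX, HIST2H2AA4 and H2AFJ on the higher side.

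The base composition of the 3' end moved with the ratio in these libraries. Over all compared symbols, the 25% with the lowest GC content in the last 300 bases of the longest annotated transcript had a median log2 ratio of -0.32, and the 25% with the highest 0.59. The compared HIST genes had a median of 57.0% GC and the variants 35.7%, and H1FX had 65.0%. Ratios were therefore also centred on the median of 20 bins of GC content. H1FX then had a log2 ratio of 0.30 in place of 1.14, H2AFZ -0.40 in place of -0.69 and HIST2H2AA4 -0.04 in place of 0.68, and none was called. HIST1H1C (-1.34), H2AFX (-1.51), H2AFY2 (-1.09) and HIST1H2BD (-1.26) remained lower, and H2AFJ (0.95) and HIST2H2BC (1.71) remained higher.

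Centring called 3 histone genes higher, beside 15.2% of symbols, and 8 lower, beside 19.1%. The genes called lower only after centring were HIST1H2BK (-1.01), HIST1H4J (-0.76), HIST2H2AC (-0.64) and HIST1H2AJ (-0.60), and H3F3A (0.64) was called higher. The median of the 12 HIST genes turned from 0.25 to -0.50 and that of the 11 variants went from 0.02 to 0.30. For 5 of the 12 HIST genes the annotation stops at the stop codon, so that their GC value is that of coding sequence and may not be that of the stretch that was read. The part of base composition in any single difference was not tested.

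**Figure D5:**
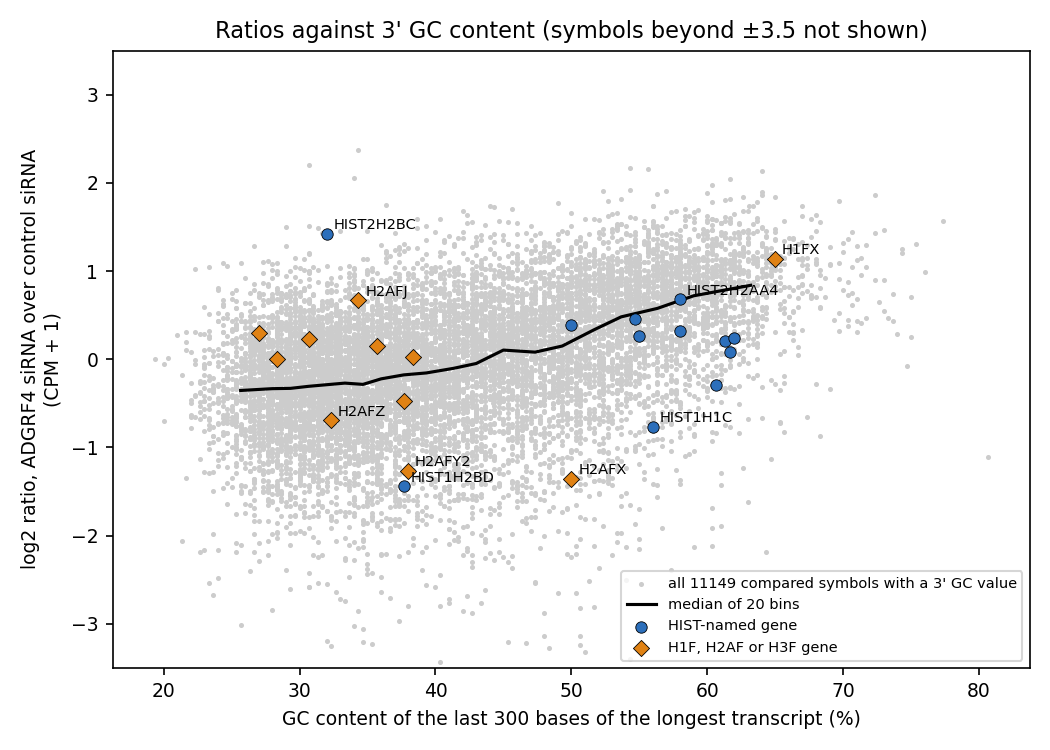
Log2 ratio of (CPM + 1) against GC content (%) of the last 300 bases for the 11149 compared symbols with a value (grey), their median in 20 bins (black line), HIST-named genes (blue circles) and variants (orange diamonds). H1FX lies just past the upper end of the line at 65.0% GC, whereas H2AFX, HIST1H1C, H2AFY2 and HIST1H2BD lie below it.

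Factors that make and destroy the stem-loop mRNA were compared from a list of 18, all with enough counts. At 1.5-fold, 3 factors were called higher and 3 lower, and 12 lay between, with a median log2 ratio of -0.06; the shares of all compared symbols are the 21.1% and 22.3% given above. SLBP itself, with 187 and 60 counts, was 2.66-fold lower (1.98 to 3.62). ERI1, a nuclease that trims the stem-loop end, was 2.18-fold lower (1.60 to 3.02), from 146 to 57 counts. ZNF473, a zinc finger protein of the U7 complex, was 2.33-fold higher (1.85 to 2.94), from 113 to 224 counts, and LSM10, a U7 ring protein, 1.93-fold higher (1.67 to 2.24), from 293 to 482. After GC centring SLBP (-0.95), ERI1 (-0.79) and ZNF473 (1.06) were still past 1.5-fold, and LSM10 (0.20) was not.

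Histone chaperones, which carry histones to and from DNA, gave 3 higher, 3 lower and 14 between among 20 compared of 21 listed, with a median of 0.02, beside the same 21.1% higher and 22.3% lower over all compared symbols. RBBP7, a histone-binding subunit of several chromatin complexes, was 3.62-fold lower (3.21 to 4.09), from 1400 to 330 counts. ASF1B, a chaperone of H3 and H4 in dividing cells, was 2.77-fold lower (2.28 to 3.37), from 448 to 138 counts. ATRX, which with DAXX places H3.3 at repeats, was 1.65-fold lower (1.58 to 1.73), from 5464 to 2822 counts, and had a centred log2 ratio of -0.41. IPO4, an importin that carries H3 and H4, was 1.74-fold higher (1.56 to 1.93), from 599 to 887 counts, and had a centred log2 ratio of 0.45.

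Genes of S phase, when replication-dependent histone mRNA is made, also went both ways. Of 25, 6 were higher (21.1% of all compared symbols were), 8 lower (22.3% of all) and 11 between, with a median of -0.02. CCNE2, a cyclin of S phase entry, had 82 and 16 counts (4.37-fold lower, 2.54 to 8.0). FEN1, a nuclease of DNA replication, had 933 and 265 counts (3.0-fold lower, 2.62 to 3.45), and MCM2, a subunit of the replicative helicase, 608 and 176 (2.95-fold lower, 2.49 to 3.5). MCM5, of the same helicase, was 2.62-fold higher (2.42 to 2.84), from 877 to 1960 counts, and its centred log2 ratio was 0.54. None of the 3 lists had a median far from that of all compared symbols.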

How the data were processed

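RNA of A549 cells, 1 library per treatment, was profiled with the Lexogen QuantSeq kit, per the labels' protocols. The deposited values are raw whole-number read counts, listed by gene symbol, with no scaling. Bowtie2, edgeR and hg19 are named in the submitters' processing notes; the sources used here do not give their roles, versions, the annotation, the strand setting or how multi-mapped reads were counted. No histone symbol was on more than 1 row, and other repeated symbols were summed. Histone genes, lists and tests were chosen with earlier results of these data known.

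TMM scaling used edgeR 4.0.16 in R 4.3.3 on all symbols. Ratios of (CPM + 1) were formed where the libraries averaged 30 counts or more. Both counts were named for every compared gene, and for up to 4 genes a list with the largest log2 ratio; genes under the limit were named after their values were seen. Shares and ratios carry Clopper-Pearson intervals. The ratio code was tested on simulated data. Sequences, 3' ends and GC content came from GENCODE 29 transcripts (GRCh38), matched by symbol, so no coordinates are printed. GC values were found for 94.7% of the compared symbols. A word of 50 bases counted as shared when it occurred in a transcript of another gene symbol. Python 3.11.15 and scipy 1.17.1 were used. Alternatives were other scalings (including DESeq2 1.42.0 size factors), pseudocounts, count limits, fold thresholds and GC centring.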

Additional observations from a re-analysis of the deposited data

How the results depend on the processing

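No paired analysis was possible because each treatment has 1 library. With total-count scaling all log2 ratios shift by -0.15 before the pseudocount. The log2 ratio of the HIST sum was then 0.11 in place of 0.26 and that of the variant sum 0.049 in place of 0.20, and 2 genes were higher in place of 4: H2AFJ (0.52) and HIST2H2AA4 (0.54) fell short of 1.5-fold, and H2AFY (-0.62) was called lower. Of all symbols, 16.1% were then higher and 27.7% lower. H1FX, with a log2 ratio of 0.99 under total-count scaling, fell just short of 2-fold. The HIST sum had a log2 ratio of 0.036 without HIST1H4C, and the variant sum -0.059 without H1FX, an alternative chosen after seeing the data; without H3F3B it was 0.21. Centring on 3' GC turned the median of the compared histone genes from 0.20 to -0.30 and HIST2H2AA4 to -0.040, and called 8 genes lower in place of 5. With no count limit 10 genes were higher and 5 lower, and such calls can rest on a few counts. With a limit of 10 mean counts 6 were higher and 5 lower, and with 100 mean counts 3 and 4. The shares over all symbols at these limits are not given here. At 2-fold 2 were higher, beside 7.84% of compared symbols, and 3 lower, beside 10.4%. Summing near-identical copies, also chosen after seeing the data, gave 3 higher and 5 lower. With DESeq2 size factors, upper-quartile scaling and pseudocounts of 0.1 and 5, the counts of higher and lower genes were as in the main comparison. Depth limits the genes under 30 counts, for which no ratio is given.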
